A study of Mus musculus with 9 samples.

Results

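Notch signaling and the choice between absorptive and secretory cells were followed here through 10 genes in gut organoids of mice with a mutated Apc gene. The genes are the receptors Notch1 and Notch2, the ligands Dll1, Dll4, Jag1 and Jag2, the targets and regulators Hes1, Hes6 and Nrarp, and Atoh1, the switch gene of the secretory lineage. They were set by gene name, and all 10 had a row among the 23955 gene symbols counted.

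Organoids are small closed epithelia that stem cells of the gut form in culture. RNA was sequenced from 3 organoid samples of each of 3 groups. The MIN group was grown from the normal-looking gut next to the tumors of APCmin/+ mice, which carry an Apc mutation in every cell. The Adenoma group came from the adenomatous polyps of APCmin/+ mice, and the Sulindac group from such polyps with the organoids given the nonsteroidal anti-inflammatory drug sulindac. All groups therefore carried the Apc mutation, and all were grown with R-spondin1, Noggin, EGF, bFGF and B27. Samples without the mutation were not analysed here. The series design calls the samples biological replicates, but the animal behind each, its age, the drug's dose and duration in the organoids and the vehicle given to untreated ones are not given in the sources used here.

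Notch receptors are cut after they bind a Delta-like or Jagged ligand on a neighboring cell, and the freed inner part joins the DNA-binding protein RBPJ to switch on genes such as Hes1. In the gut crypt HES1 represses Atoh1, so a cell with high Notch activity takes the absorptive path, while a cell that escapes it expresses Atoh1 and its own Delta-like ligands and becomes a goblet, Paneth or enteroendocrine cell. Blocking Notch is known to turn crypt and adenoma cells into goblet cells. Several of these genes are also known to respond to Wnt signaling, the pathway that Apc restrains.

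Total counts per sample ranged from 30881206 to 48412477. Levels are in CPM, the counts assigned to 1 gene in every 1000000 of the TMM-normalized library. A count of 3, taken as the floor of detection, was worth 0.0641 to 0.10 CPM, which covers counting error only. The epithelial markers, among them Epcam and Krt8, summed to 5242.5 to 7891.5 CPM in MIN, 3266.3 to 4338.6 CPM in the Adenoma group and 4501.9 to 5354.3 CPM in Sulindac, so the labeled epithelium was present in every sample. In bulk RNA, fewer cells of a type and less RNA per cell cannot be told apart.

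The Delta-like ligands Dll1 and Dll4 and the switch gene Atoh1 were lower in Adenoma than in MIN, while the Jagged ligands Jag1 and Jag2 and the HES family gene Hes6 were higher. With sulindac, Dll1, Dll4, Notch1, Hes1 and Hes6 were lower than in untreated Adenoma, and none of the 10 was higher. Each comparison was made with the quasi-likelihood test of edgeR and called, after adjustment by Benjamini and Hochberg over all genes tested, at a false discovery rate (FDR) of 1%, and all 10 genes had enough counts to be tested each time. Of the 10, 3 were higher and 3 lower in Adenoma than in MIN. Among all 13744 genes tested there, 18.5% were higher and 20.1% lower. Between Sulindac and Adenoma, 0 of the 10 were higher and 5 were lower, against 8.32% and 9.1% of the 12962 genes tested. The 5 became 3 without Adenoma replicate 2 or Sulindac replicate 2, 2 without Sulindac replicate 1 and 1, Dll4, without Sulindac replicate 3. With library size alone as the scaling, the median of all genes in this comparison moved to -0.18 on the log2 scale, and 603 genes were higher and 1983 lower in place of 1078 and 1179. For the 10 genes that scaling gave 0 higher and 6 lower. That count of 0 higher was also 0 at an unadjusted p under 0.05 and by DESeq2's Wald test. Between Sulindac and MIN, 3 were higher and 5 lower, against 23% and 26.8% of 13551 genes. The median log2 fold change of the 10 genes was -0.03, -0.61 and -0.51 in the respective comparisons, and that of all genes tested was -0.008, -0.013 and -0.031.

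**Figure D1:**
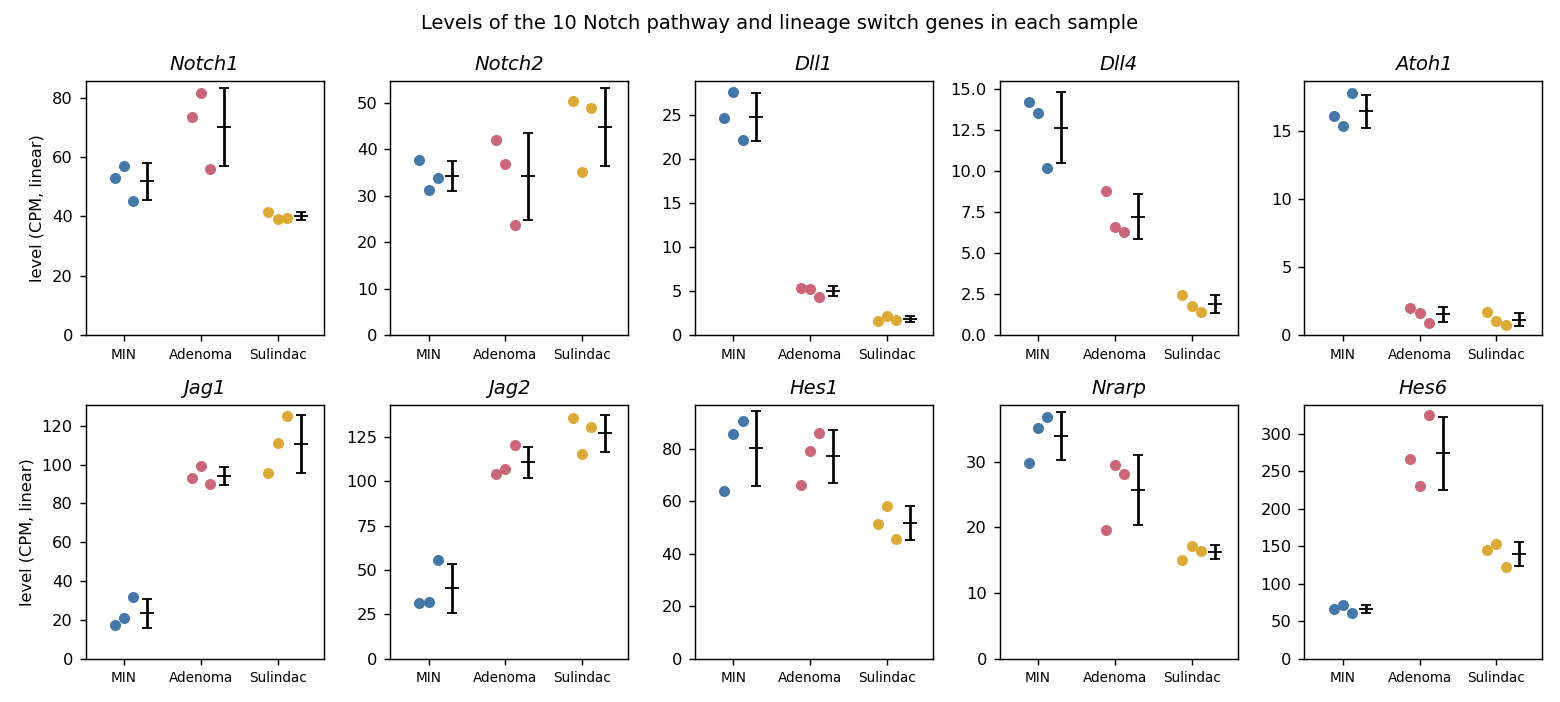
Level of each of the 10 genes in CPM on a linear axis from 0, with 1 point per sample and, beside the points, the mean with 1 SD (n = 3). The 3 MIN samples hold the highest Dll1, Dll4 and Atoh1 levels, while Jag1, Jag2 and Hes6 are above MIN in all 6 samples from adenomas.

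The receptors are the proteins that ligand binding cuts and activates, and Notch1 and Notch2 act together in the crypt. Notch1 stood at 53.1, 57.2 and 45.1 CPM in the 3 MIN samples, at 73.4, 81.6 and 55.9 CPM in Adenoma and at 41.5, 39.2 and 39.4 CPM in Sulindac. The Sulindac samples lay close together and below every other sample, and the MIN and Adenoma ranges overlapped. Between Sulindac and MIN the log2 fold change of -0.38 did not pass (SE 0.106, adjusted p = 0.0133), although it passed under 4 of 14 alternatives. Notch1 fell with sulindac by 0.81 on the log2 scale (SE 0.147, adjusted p = 0.00421), a mean of 70.3 CPM against 40.0 CPM. Of the 6 fits that left out a sample, 5 no longer passed, with an adjusted p of up to 0.0224 without Sulindac replicate 3, and only the fit without Adenoma replicate 3 still did. Against MIN, Adenoma gave a log2 fold change of 0.44 (SE 0.157, adjusted p = 0.0426), which did not pass, although it did without Adenoma replicate 3 (0.58, adjusted p = 0.00588).

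Notch2 showed no called difference. It stood at 37.8, 31.3 and 33.8 CPM in MIN, at 42.0, 36.9 and 23.7 CPM in Adenoma and at 50.3, 35.1 and 49.0 CPM in Sulindac. The ranges of all groups overlapped, and Adenoma replicate 3 was the lowest sample. The log2 fold change was -0.00 between Adenoma and MIN (SE 0.199, adjusted p = 0.994) and 0.40 between Sulindac and Adenoma (SE 0.228, adjusted p = 0.214). The Sulindac samples were on average 0.38 above MIN on that scale (SE 0.15, adjusted p = 0.0516), and this difference passed only without Sulindac replicate 2 (0.54, adjusted p = 0.00377).

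Dll1 encodes a Delta-like ligand that the secretory progenitors of the crypt present to their neighbors. Its level was 24.7, 27.6 and 22.1 CPM in MIN, 5.39, 5.25 and 4.31 CPM in Adenoma and 1.57, 2.17 and 1.75 CPM in Sulindac. The groups formed separate steps with no overlap, down to 47 counts in a Sulindac sample. Dll1 was 4.97-fold lower in Adenoma than in MIN in mean CPM, a log2 fold change of -2.31 (SE 0.159, adjusted p = 5.84e-06). With sulindac it fell by a further 1.44 on the log2 scale (SE 0.212, adjusted p = 0.0017). The latter call was lost without Sulindac replicate 1 (adjusted p = 0.0102) or Sulindac replicate 3 (adjusted p = 0.0118).

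Dll4, the other Delta-like ligand of the crypt, stood at 14.2, 13.5 and 10.2 CPM in MIN, at 8.79, 6.59 and 6.27 CPM in Adenoma and at 2.47, 1.80 and 1.40 CPM in Sulindac. Every sample of a group lay below every sample of the group before it. The fall from MIN to Adenoma was small and near the threshold, at -0.81 on the log2 scale (SE 0.201, adjusted p = 0.00908). It did not pass with library size alone as the scaling (adjusted p = 0.028), nor without MIN replicate 1, MIN replicate 2, Adenoma replicate 2 or Adenoma replicate 3 (adjusted p up to 0.0371). With sulindac Dll4 was 3.82-fold lower in mean CPM, a log2 fold change of -1.93 (SE 0.258, adjusted p = 0.00117), and this call held without any single sample, with an adjusted p of at most 0.00738.

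Jag1 and Jag2 encode the Jagged ligands, which bind the same receptors through a related domain. Jag1 was at 17.4, 20.8 and 31.9 CPM in MIN, at 93.2, 99.1 and 90.2 CPM in Adenoma and at 95.6, 111 and 125 CPM in Sulindac. All samples from adenomas were well above all MIN samples, and within MIN replicate 3 was the highest. Jag1 was 4.03-fold higher in Adenoma than in MIN in mean CPM, a log2 fold change of 2.01 (SE 0.209, adjusted p = 6.62e-05), and between Sulindac and Adenoma the log2 fold change of 0.24 did not pass (SE 0.116, adjusted p = 0.146).

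Jag2 followed the same order of groups, with 31.4, 31.8 and 55.9 CPM in MIN, 104, 107 and 121 CPM in Adenoma and 136, 116 and 130 CPM in Sulindac. MIN replicate 3 was again the highest MIN sample, and the Adenoma and Sulindac ranges overlapped. The rise from MIN to Adenoma was 2.79-fold in mean CPM, or 1.49 on the log2 scale (SE 0.221, adjusted p = 0.00055). Without MIN replicate 3 the rise was 1.81 for Jag2 and 2.30 for Jag1. Sulindac and Adenoma differed by a log2 fold change of 0.21 in Jag2 (SE 0.105, adjusted p = 0.159).

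The opposite moves of the ligand families showed in the ratio of summed Dll1 and Dll4 to summed Jag1 and Jag2 within each sample. This ratio of CPM takes no account of gene length and is read only across samples. It was 0.798, 0.781 and 0.368 in MIN, 0.0718, 0.0574 and 0.0502 in Adenoma and 0.0174, 0.0175 and 0.0123 in Sulindac. The groups did not overlap. Within the Delta-like pair, the ratio of Dll1 to Dll4 was 1.74 to 2.18 in MIN, 0.613 to 0.797 in Adenoma and 0.635 to 1.25 in Sulindac, so the MIN samples lay above all others. The ratios were not tested. The summed ratio divides genes called lower in Adenoma by genes called higher in the same samples, so its split of MIN from Adenoma is no separate result.

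Hes1 is the best known transcriptional target of Notch in the gut and encodes the repressor of Atoh1. It stood at 64.0, 85.9 and 90.7 CPM in MIN, at 66.2, 79.4 and 86.2 CPM in Adenoma and at 51.4, 58.4 and 45.6 CPM in Sulindac. MIN and Adenoma covered almost the same range, and each Sulindac sample lay below it. Between Adenoma and MIN the log2 fold change was -0.05 (SE 0.157, adjusted p = 0.805). With sulindac Hes1 fell by 0.57 on the log2 scale (SE 0.127, adjusted p = 0.0099), which was just inside the threshold. It lay outside with RLE size factors (adjusted p = 0.0116), in a single fit of all 9 samples (adjusted p = 0.0144), in the blocked fit by replicate number (adjusted p = 0.0177) and in 5 of the 6 fits that left out a sample, all but that without Adenoma replicate 1, with an adjusted p of up to 0.0515 without Sulindac replicate 3. Against MIN, the Sulindac samples were lower by a log2 fold change of -0.64 (adjusted p = 0.00447), a call lost without MIN replicate 2, Sulindac replicate 1 or Sulindac replicate 3 (adjusted p up to 0.0219).

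Nrarp encodes a small ankyrin-repeat protein that Notch induces and that dampens Notch signaling. Its level was 29.8, 35.0 and 36.8 CPM in MIN, 19.6, 29.5 and 28.1 CPM in Adenoma and 15.1, 17.1 and 16.5 CPM in Sulindac. The groups stood in a descending order without overlap, but neither step passed the threshold on its own. The log2 fold change was -0.40 from MIN to Adenoma (SE 0.17, adjusted p = 0.0822) and -0.66 from Adenoma to Sulindac (SE 0.16, adjusted p = 0.0144). The latter passed without Adenoma replicate 1 (-0.82, adjusted p = 0.00306), with library size alone (adjusted p = 0.00521), in the fit over all 9 samples (adjusted p = 0.00835) and with DESeq2's Wald test (adjusted p = 0.00211). Between Sulindac and MIN, Nrarp fell by 1.07 on the log2 scale (SE 0.112, adjusted p = 5.39e-05). Of the 50-base stretches of its transcripts, 77.3% also lie in Gm38287, a gene annotated on the opposite strand, and the strand setting of the counting is not given in the sources used here, so reads of these genes cannot be told apart. For Dll1 and Notch1 such shared stretches made up 16.1% and 9.11%, and for Hes1, Hes6, Jag1, Jag2 and Atoh1 there were none.

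Hes6 encodes a HES family protein that is known to counteract HES1 in neural cells and does not need Notch for its expression there. It was at 66.0, 72.0 and 61.1 CPM in MIN, at 266, 230 and 325 CPM in Adenoma and at 145, 153 and 122 CPM in Sulindac. The groups were separate, with Sulindac between the others. Hes6 was 4.12-fold higher in Adenoma than in MIN in mean CPM, a log2 fold change of 2.05 (SE 0.148, adjusted p = 7.88e-06). With sulindac it fell by 0.96 on that scale (SE 0.14, adjusted p = 0.00163), leaving it 1.07 above MIN (adjusted p = 4.15e-05). The call between Sulindac and Adenoma was lost without Sulindac replicate 3 (adjusted p = 0.0115).

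Atoh1 encodes the transcription factor that goblet, Paneth and enteroendocrine cells of the gut require. It was at 16.1, 15.4 and 17.8 CPM in MIN, at 2.02, 1.62 and 0.925 CPM in Adenoma and at 1.67, 1.01 and 0.727 CPM in Sulindac. The MIN samples were far above the rest, and the Adenoma and Sulindac samples overlapped at 25 to 72 counts each. Atoh1 was 10.8-fold lower in Adenoma than in MIN in mean CPM, a log2 fold change of -3.43 (SE 0.271, adjusted p = 1.31e-05). Between Sulindac and Adenoma the log2 fold change was -0.43 (SE 0.402, adjusted p = 0.449), and at these counts a change of that size could not be separated from the spread, with a CV of 36.4% in Adenoma and 42.5% in Sulindac.

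The ratio of Atoh1 to Hes1 was 0.252, 0.179 and 0.197 in MIN, 0.0305, 0.0204 and 0.0107 in Adenoma and 0.0324, 0.0173 and 0.016 in Sulindac. The MIN samples stood apart, and the Adenoma and Sulindac samples mixed. The ratio of Hes6 to Hes1 was 0.673 to 1.03 in MIN, 2.89 to 4.02 in Adenoma and 2.62 to 2.83 in Sulindac, while that of Notch1 to Notch2 was 1.34 to 1.82 in MIN, 1.75 to 2.35 in Adenoma and 0.803 to 1.12 in Sulindac. In this last ratio all 3 Sulindac samples lay below all others.

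**Figure D2:**
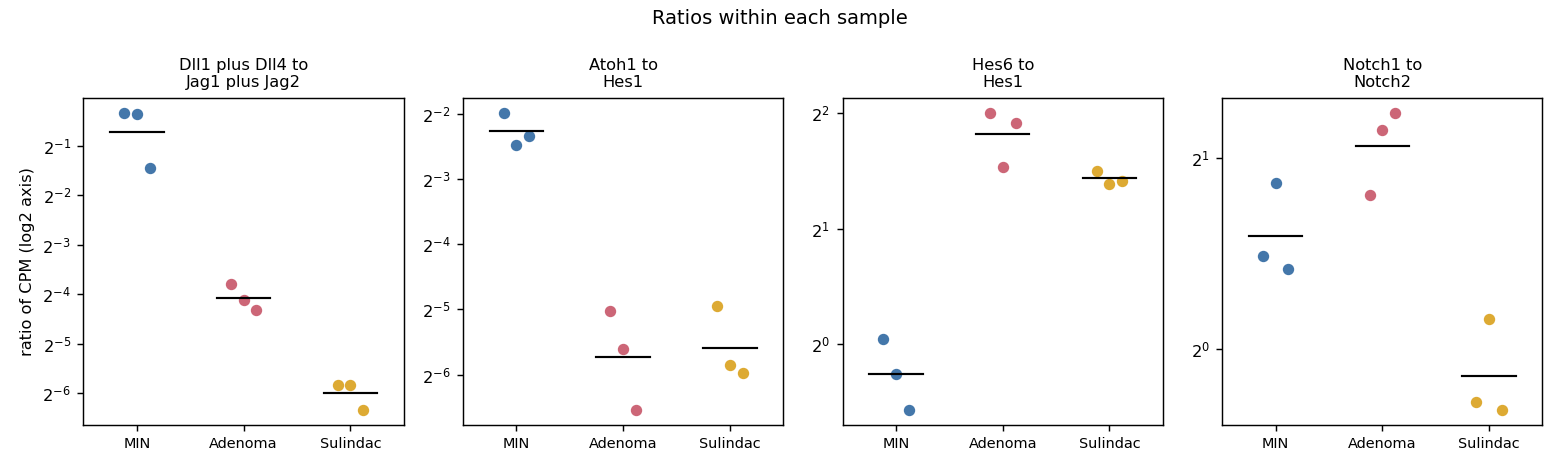
Ratios of CPM within each sample on a log2 axis, with 1 point per sample and a line at the geometric mean of each group (n = 3). The ratio of Delta-like to Jagged ligands is 0.368 to 0.798 in MIN and at most 0.0718 elsewhere, and Atoh1 to Hes1 is at least 0.179 in MIN and at most 0.0324 elsewhere.

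Per length of transcript, the members ranked differently in each group. In MIN the level per kilobase of exon was highest for Hes1 (54.6 CPM per kb) and Hes6 (49.7 CPM per kb), whose ranges overlapped, and lowest for Notch2 (3.27 CPM per kb) and Dll4 (3.37 CPM per kb), which overlapped too. Atoh1, at 7.76 CPM per kb, overlapped Jag2 above it and Dll1 below it. In Adenoma the order was Hes6 (205 CPM per kb), Hes1, Jag2, Jag1, Nrarp, Notch1, Notch2, Dll4, Dll1 and Atoh1 (0.718 CPM per kb). Only Nrarp and Notch1, and Notch2 and Dll4, overlapped as neighbors. In Sulindac, Hes6 (105 CPM per kb) again led, and Atoh1, Dll1 and Dll4 lay together at the bottom with 0.535, 0.51 and 0.504 CPM per kb, overlapping as neighbors.

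**Figure D3:**
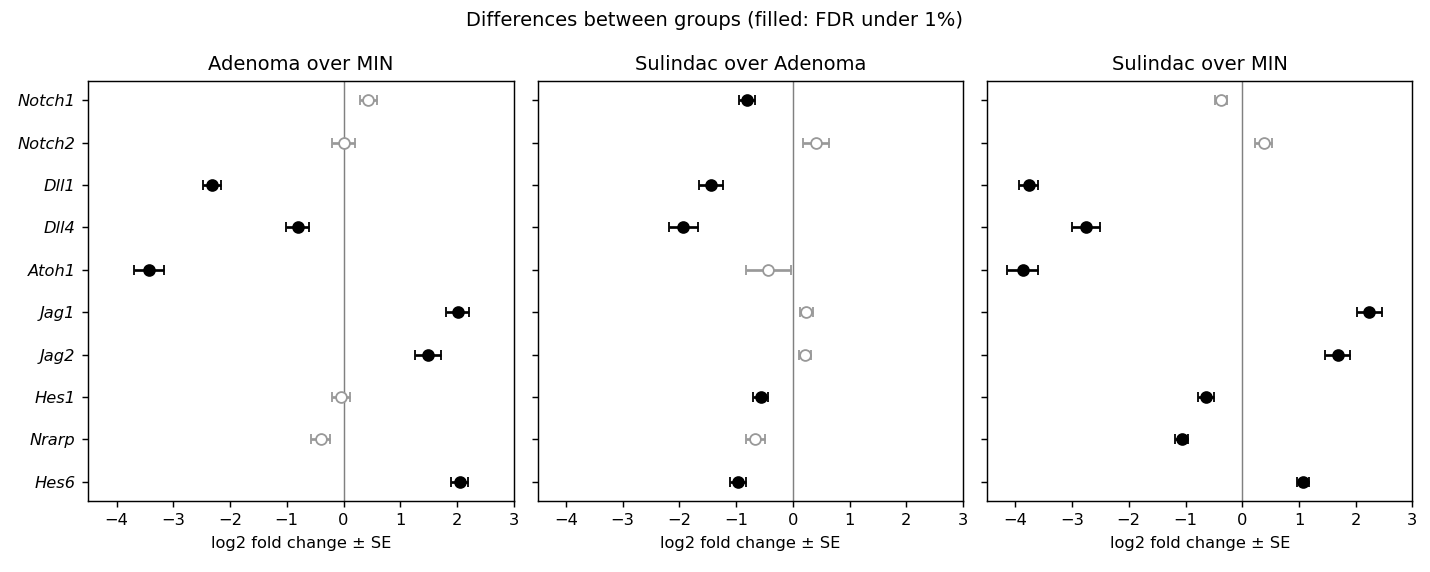
Log2 fold change of each gene in the 3 comparisons with its SE, from edgeR's quasi-likelihood test. Filled points passed the FDR of 1%: 6 of 10 between Adenoma and MIN, 5 between Sulindac and Adenoma, all lower, and 8 between Sulindac and MIN. The comparisons share groups of samples.

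The promoters of these genes were searched for the short motifs that HES proteins, ATOH1 and RBPJ are known to bind. RefSeq windows of 300 bases, from 250 bases before to 50 after each start site on GRCm38.p6, matched 9 of the 10 members, all but Hes1, with 11 windows. Those of Atoh1, Dll4 and Dll1, which fell, and of Jag1 and Hes6, which rose, are printed to set the opposite groups side by side. Dll1 and Hes6 have 2 windows each, and for each the window with an N box is shown. They lie at chr6:64728875-64729174 on the plus strand for Atoh1, chr2:119325534-119325833 on the plus strand for Dll4, chr17:15376883-15377182 on the minus strand for Dll1, chr2:137116471-137116770 on the minus strand for Jag1 and chr1:91413173-91413472 on the minus strand for Hes6. Each is written 5′ to 3′ along the gene, and capitals mark matches on either strand to the N box CACNAG, which HES repressors bind, and to CAGCTG, an E box form that ATOH1 binds.
Atoh1: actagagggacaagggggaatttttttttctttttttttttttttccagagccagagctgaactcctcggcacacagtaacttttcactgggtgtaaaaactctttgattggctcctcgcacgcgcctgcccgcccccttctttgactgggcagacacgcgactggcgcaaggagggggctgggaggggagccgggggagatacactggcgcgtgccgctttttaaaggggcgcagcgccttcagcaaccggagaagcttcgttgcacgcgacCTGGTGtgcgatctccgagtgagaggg
Dll4: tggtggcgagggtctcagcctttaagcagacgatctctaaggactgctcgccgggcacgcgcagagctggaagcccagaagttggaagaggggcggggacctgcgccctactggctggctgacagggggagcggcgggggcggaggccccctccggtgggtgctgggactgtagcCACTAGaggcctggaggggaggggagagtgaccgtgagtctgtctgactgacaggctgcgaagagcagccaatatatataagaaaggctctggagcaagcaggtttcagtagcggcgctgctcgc
Dll1: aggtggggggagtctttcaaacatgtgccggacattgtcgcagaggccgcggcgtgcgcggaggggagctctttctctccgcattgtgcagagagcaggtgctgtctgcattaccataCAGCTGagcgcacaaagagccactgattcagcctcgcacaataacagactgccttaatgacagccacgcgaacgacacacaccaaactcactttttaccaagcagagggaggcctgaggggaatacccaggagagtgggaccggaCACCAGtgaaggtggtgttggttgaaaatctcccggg
Jag1: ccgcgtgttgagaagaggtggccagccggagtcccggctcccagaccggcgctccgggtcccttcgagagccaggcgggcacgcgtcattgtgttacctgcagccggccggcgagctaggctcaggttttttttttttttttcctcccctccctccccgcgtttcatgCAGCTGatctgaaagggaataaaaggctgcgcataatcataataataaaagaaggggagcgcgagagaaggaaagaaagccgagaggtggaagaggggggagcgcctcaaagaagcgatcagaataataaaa
Hes6: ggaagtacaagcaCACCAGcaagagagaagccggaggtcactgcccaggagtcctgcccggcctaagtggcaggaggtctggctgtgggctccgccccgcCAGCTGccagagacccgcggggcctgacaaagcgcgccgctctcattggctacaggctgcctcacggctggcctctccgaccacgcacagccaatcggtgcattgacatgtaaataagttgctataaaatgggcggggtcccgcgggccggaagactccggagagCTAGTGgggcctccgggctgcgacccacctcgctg

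The N box was found in 7 of the 11 member windows and in 42.5% of 32851 promoters of the same length. CAGCTG, itself a form of the wider E box CANNTG, was found in 5 member windows of 4 genes, which are Hes6, Nrarp, Jag1 and Dll1, and in 16.3% of all promoters. It lay 82 bases before the start site in Jag1 and 132 before it in the Dll1 window, counted to the first base of the match. The windows of Atoh1 and Dll4 held an N box and no CAGCTG. The core RBPJ site TGGGAA was in 0 of the 11 windows, which do not include Hes1, and in 25.6% of all promoters. Letters alone do not mark a bound site, and other regions were not searched.

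Around the 10 members, 98 other genes of the pathway and of the secretory lineage were counted. Between Adenoma and MIN, 84 of them were tested, and 17 (20.2%) were higher and 19 (22.6%) lower, near the background of all genes. Between Sulindac and Adenoma, 4 of 76 (5.26%) were higher and 11 (14.5%) lower, against 8.32% and 9.1% of all genes. Without Sulindac replicate 3 these counts were 1 and 4, and without Sulindac replicate 1 they were 1 and 6. Between Sulindac and MIN, 16 of 84 (19.05%) were higher and 30 (35.7%) lower, against 23% and 26.8% of all genes. The 16 became 9 without Sulindac replicate 3 and 10 without MIN replicate 2. The median log2 fold change of the genes tested was -0.09 over 84, -0.08 over 76 and -0.13 over 84.

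Of 8 other receptors and ligands, 5 were tested between Adenoma and MIN, with Notch3 higher and Dll3 and Dner lower. Among all genes, 18.5% were higher and 20.1% lower. Notch3, a receptor best known from vascular smooth muscle, was at 7.23, 7.12 and 8.64 CPM in MIN, at 38.9, 40.7 and 27.96 CPM in Adenoma and at 32.5, 29.2 and 34.4 CPM in Sulindac. Adenoma and Sulindac samples overlapped, and all were above MIN. Notch3 rose from MIN to Adenoma by 2.23 on the log2 scale (SE 0.175, adjusted p = 1.27e-05), and between Sulindac and Adenoma its log2 fold change was -0.16 (adjusted p = 0.491). Dll3, a divergent Delta-like protein, had 22 to 44 counts in the MIN samples and 2 to 5 in Adenoma (adjusted p = 0.000559), and Dner, a related membrane protein, had 29 to 40 in MIN and 0 in all others (adjusted p = 0.00014).

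Of 14 genes for ligand endocytosis and receptor glycosylation, 2 were higher and 2 lower in Adenoma than in MIN, against 18.5% and 20.1% of all genes. Neurl1a, a Neuralized ubiquitin ligase, rose from a MIN mean of 0.659 CPM to an Adenoma mean of 45.7 CPM, by 6.12 on the log2 scale (adjusted p = 1.24e-07), and its relative Neurl3 fell by 1.26 (adjusted p = 8.09e-05). Pofut1, the enzyme that puts O-fucose on Notch receptors, fell by 1.61 (adjusted p = 3.74e-05). Epn2, an epsin that helps ligands into endocytosis, rose by 0.98 (adjusted p = 8.35e-05). With sulindac, 0 of the 14 were higher and 2 lower, against 8.32% and 9.1% of all genes. The 2 lower were Mfng, a Fringe sugar transferase at 3 to 5 counts in Sulindac (log2 fold change -2.60, adjusted p = 0.00163), and Poglut1, which adds O-glucose (-0.52, adjusted p = 0.00916). Mfng did not pass without Sulindac replicate 1 or Sulindac replicate 3, and Poglut1 did not pass without any single sample other than Adenoma replicate 3, with RLE size factors, with no low-count filter or with the replicate block. Lfng, another Fringe enzyme, had a log2 fold change of -1.16 with sulindac that did not pass (adjusted p = 0.0117), although it passed under 7 of 14 alternatives, which were library size alone, no low-count filter, the replicate block, DESeq2's Wald test, 1 fit over all 9 samples, an FDR of 5% and leaving out Adenoma replicate 3. Between Sulindac and MIN, Lfng fell by 1.17 (adjusted p = 0.00254).

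Among the proteases that cut the receptor, Adam10, which makes the first cut after ligand binding, did not pass between Adenoma and MIN (0.25, adjusted p = 0.105) or between Sulindac and Adenoma (0.10, adjusted p = 0.465). Aph1a and Aph1b encode alternative scaffold subunits of the complex that makes the later cut. Aph1b rose from a MIN mean of 5.50 CPM to an Adenoma mean of 13.7 CPM, by 1.32 on the log2 scale (SE 0.17, adjusted p = 0.00024), and Aph1a fell by 0.52 (SE 0.0984, adjusted p = 0.00219). The fall of Aph1a did not pass with library size alone, nor without MIN replicate 2, Adenoma replicate 1 or Adenoma replicate 2. Neither passed between Sulindac and Adenoma.

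In the RBPJ complex and its corepressors, 4 of 20 tested genes were higher and 1 lower in Adenoma, and 1 was higher and 3 lower with sulindac. Among all genes, 18.5% were higher and 20.1% lower in Adenoma, and 8.32% and 9.1% with sulindac. The 3 lower became 1, Hdac1, without Sulindac replicate 1 or Sulindac replicate 3, and the 1 higher, Maml1, did not pass with library size alone, with the replicate block or without any single sample other than Adenoma replicate 3. The 1 lower in Adenoma, Ctbp1, did not pass with library size alone or without MIN replicate 1, MIN replicate 2 or Adenoma replicate 1. Among the 4 higher in Adenoma, Hdac2 (0.39, adjusted p = 0.00788) did not pass under 7 of 14 alternatives. Rbpj itself stood at 67.5 to 72.6 CPM in MIN, 74.3 to 94.3 CPM in the Adenoma group and 85.6 to 94.3 CPM in Sulindac, with no called difference between Adenoma and MIN (0.29, adjusted p = 0.0641) or between Sulindac and Adenoma (0.07, adjusted p = 0.702). Between Sulindac and MIN, Rbpj rose by 0.34 on the log2 scale (SE 0.0766, adjusted p = 0.00428), a call lost in a single fit of all 9 samples and without MIN replicate 1, MIN replicate 2, Sulindac replicate 1 or Sulindac replicate 3. Maml2, a coactivator that binds the complex, rose by 3.06 in Adenoma (adjusted p = 0.000291). Hdac1 and Tle1, which act in repression by HES proteins, rose by 0.62 and 0.91 in Adenoma and fell by 0.79 and 0.61 with sulindac (adjusted p at most 0.00518). For Tle1 the fall did not pass with the replicate block or without Sulindac replicate 1, 2 or 3.

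Among 10 receptor turnover genes tested, Numbl and Dtx3 were higher in Adenoma and Numb lower, against 18.5% and 20.1% of all genes. Numb, which marks Notch for endocytosis, fell by 0.86 (adjusted p = 0.000303), and its relative Numbl rose by 3.73 from a mean of 0.661 CPM (adjusted p = 3.22e-06). With sulindac, 1 of the 10, Dtx2, was higher (0.66, adjusted p = 0.00635) and 0 were lower, against 8.32% and 9.1% of all genes. Dtx2 did not pass with library size alone, with the replicate block or without any single sample other than Adenoma replicate 3. Of the other HES and HEY factors only 2 of 10, Hes2 and Bhlhe40, had enough counts to test, and neither passed in any comparison. Bhlhe40 came nearest, with a log2 fold change of 0.68 between Sulindac and Adenoma (adjusted p = 0.0112), and it passed there with RLE size factors, no low-count filter, the replicate block, DESeq2's Wald test or an FDR of 5%, and without Adenoma replicate 3. Hes5 had 7 to 17 counts in the MIN samples and 0 in all others, and Hey1 had at most 7 counts in any sample.

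The factors of the secretory lineage moved in both directions. Of 24 tested between Adenoma and MIN, 7 were higher and 11 lower, with a median log2 fold change of -0.28, and with sulindac 1 of 18 was higher and 6 were lower. The shares of all genes were 18.5% and 20.1% in the former comparison and 8.32% and 9.1% in the latter. Without Sulindac replicate 3 the 6 became 3, as Gfi1, Foxa3 and Sox4 no longer passed, and with library size alone they became 12. Among the 7 higher in Adenoma, Foxa1 (0.45, adjusted p = 0.00864) did not pass under 6 of 14 alternatives. Spdef, which directs goblet and Paneth maturation, had 14.4 to 16.9 CPM in MIN, 0.318 to 0.531 CPM in the Adenoma group and 0.0611 to 0.133 CPM in Sulindac. Its Adenoma samples held 11 to 19 counts and its Sulindac samples 2 to 4. Spdef fell from MIN to Adenoma by 5.26 on the log2 scale (adjusted p = 6.2e-07). Neurog3, the switch gene of enteroendocrine cells, was at 17.4, 21.0 and 9.84 CPM in MIN and 1.01, 2.10 and 0.463 CPM in Adenoma, and fell by 3.75 (adjusted p = 0.000282).

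Gfi1, which acts after Atoh1 in goblet and Paneth cells, was at 7.54, 7.39 and 5.83 CPM in MIN, at 2.95, 3.66 and 3.38 CPM in Adenoma and at 0.567, 1.22 and 0.785 CPM in Sulindac. It stepped down without overlap, by 1.05 on the log2 scale to Adenoma (adjusted p = 0.00214) and by 1.94 with sulindac (adjusted p = 0.00202). The former call was lost without MIN replicate 1, MIN replicate 2 or Adenoma replicate 1 (adjusted p up to 0.0116), and the latter without Sulindac replicate 3 (adjusted p = 0.0137). Neurod1, a later enteroendocrine factor, had 173 to 208 counts in the MIN samples and 0 to 1 in all others.

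Sox9 and Klf4 did not follow Atoh1. Sox9, a Wnt target of crypt progenitors and Paneth cells, was at 66.3, 67.2 and 58.7 CPM in MIN, at 168, 186 and 160 CPM in Adenoma and at 143, 130 and 119 CPM in Sulindac, and rose in Adenoma by 1.42 on the log2 scale (adjusted p = 1.1e-05). Klf4, linked to goblet cells and to growth arrest, was at 37.7, 38.5 and 58.5 CPM in MIN, at 48.5, 40.4 and 44.8 CPM in Adenoma and at 91.9, 78.2 and 92.2 CPM in Sulindac. It rose with sulindac by 0.98 (adjusted p = 0.000689) and was the only one of the 18 lineage factors tested there to do so. Id3, which blocks basic helix-loop-helix factors, was at 17.4 to 28.9 CPM in MIN, 123 to 148 CPM in the Adenoma group and 23.0 to 52.2 CPM in Sulindac, and it rose by 2.67 (adjusted p = 1.27e-05) and then fell by 1.91 (adjusted p = 0.00133). Creb3l1, a bZIP factor of secretory cells, fell in Adenoma by 1.88 (adjusted p = 2.73e-05). Bhlha15, a factor of mature secretory cells, overlapped between MIN (28.2 to 50.4 CPM) and Adenoma (29.0 to 46.7 CPM) and was at 1.87 to 4.28 CPM in Sulindac, a fall of 3.87 with the drug (adjusted p = 0.00017).

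**Figure D4:**
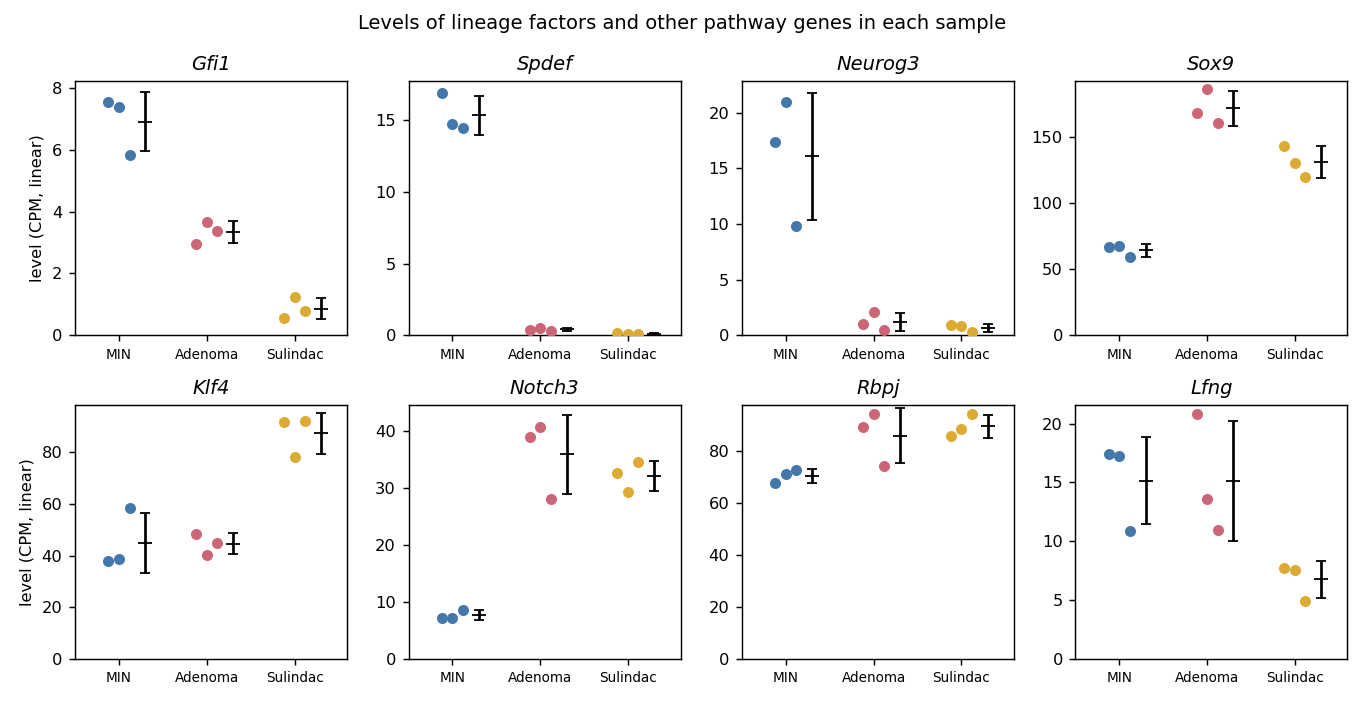
Levels in CPM on linear axes from 0 of 5 lineage factors (Gfi1, Spdef, Neurog3, Sox9, Klf4) and 3 other pathway genes (Notch3, Rbpj, Lfng), with 1 point per sample and the mean with 1 SD (n = 3). Spdef is at 14.4 to 16.9 CPM in MIN and at most 0.531 CPM elsewhere, and Klf4 is highest in the 3 Sulindac samples, at 78.2 to 92.2 CPM.

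Markers of the cell types made along these branches moved in the same samples. All 7 goblet markers were lower in Adenoma than in MIN, and their summed level was 2437 to 2785.9 CPM in MIN, 132 to 241 CPM in the Adenoma group and 60.1 to 123 CPM in Sulindac. Muc2, the main gut mucin, was at 84.2 to 152 CPM in MIN and at 0.578 to 0.671 CPM in Adenoma. All 13 enteroendocrine markers were lower as well, with a sum of 366 to 647 CPM in MIN and 1.83 to 3.12 CPM in Adenoma, where Chga had 0 to 1 counts. Of 9 Paneth markers, 7 were lower and 2, Mmp7 and Pla2g2a, were higher, and Lyz1 went from a mean of 4686 CPM to 41.5 CPM. Among these lower calls, the goblet marker Clca1 did not pass with library size alone or without MIN replicate 1, 2 or 3 or Adenoma replicate 2. The enteroendocrine marker Sct did not pass without MIN replicate 1 or Adenoma replicate 2. The Paneth marker Ang4 did not pass with no low-count filter or without MIN replicate 3 or Adenoma replicate 3. On the absorptive branch, all 13 enterocyte markers were lower in Adenoma, with sums of 5851.2 to 9577.2 CPM against 272 to 307 CPM. Of 7 stem cell markers, 3 were higher and 3 lower. Those higher included Tnfrsf19 (log2 fold change 4.12) and Axin2 (1.63). Those lower included Lgr5 (-1.10, adjusted p = 0.00149) and Olfm4 (-13.24), which went from a mean of 1220 CPM to 0.124 CPM. With sulindac, 1 of 6 goblet, 6 of 8 Paneth and 3 of 8 enterocyte markers tested were lower, and 1 enterocyte marker, Vil1, was higher. Among all genes, 18.5% were higher and 20.1% lower in Adenoma, and 8.32% and 9.1% with sulindac. The 6 Paneth markers became 3, Itln1, Mmp7 and Pla2g2a, without Sulindac replicate 1, 2 or 3. The 3 enterocyte markers became 1 without Adenoma replicate 2, Sulindac replicate 1 or Sulindac replicate 2. Vil1 did not pass with library size alone or without Adenoma replicate 2 or any of the Sulindac replicates. The 1 goblet marker, Agr2, passed without each sample in turn, and leaving out Adenoma replicate 3 or Sulindac replicate 1 gave 2 goblet markers lower.

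Of 7 tuft cell markers in the table, 4 were tested between Adenoma and MIN, with 1 higher and 2 lower, against 18.5% and 20.1% of all genes. The 2 lower were Dclk1 (log2 fold change -4.34, adjusted p = 0.000433) and Pou2f3 (-2.87, adjusted p = 6.94e-05), with Adenoma means of 0.15 and 0.462 CPM. The 1 higher, Avil, did not pass in a single fit of all 9 samples or without MIN replicate 1, MIN replicate 2, Adenoma replicate 2 or Adenoma replicate 3. For cells outside the epithelium, the 9 endothelial markers summed to 12.2 to 15.5 CPM in MIN, 32.9 to 42.9 CPM in the Adenoma group and 63.1 to 78.0 CPM in Sulindac. Most of this was Esam, at means of 11.3, 31.7 and 63.9 CPM, while the defining marker Cdh5 had 0 counts in all samples but Adenoma replicate 2, with 1. The 6 leukocyte markers summed to 1.71 to 2.67 CPM in MIN, 8.16 to 16.5 CPM in the Adenoma group and 3.09 to 4.13 CPM in Sulindac, mostly Cd68, with at most 8 counts of the pan-leukocyte gene Ptprc. The 8 mesenchymal markers summed to at most 4.22 CPM, with Col1a2, Col3a1, Dcn and Lum at 0 counts throughout, and the 5 neural and glial markers to at most 1.22 CPM. The part of cell type shares in the levels of the 10 genes was not tested.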

How the data were processed

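RNA was sequenced from 9 organoid samples in 3 groups of 3, and the authors deposited 1 table of raw counts, the number of reads counted per gene symbol without normalization. The submitters' processing notes name RSEM, Bowtie2 2.2.4 and mm9. The annotation and strand setting are not given in the sources used here. Groups and replicate numbers came from sample titles. MIN replicate 1 was deposited as separate runs and their sum. The runs differed by -7.4% to 16.7% in the 10 genes, and the sum was used as 1 sample.

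Low-count genes were removed with filterByExpr and libraries scaled by TMM. The test was glmQLFTest after a robust glmQLFit of edgeR 4.0.16 (R 4.3.3) on just the 6 samples of a comparison, at a Benjamini-Hochberg FDR of 1%. It was also run on simulated counts, drawn as independent samples, and no result here rests on that run. SE is the absolute log2 fold change over the square root of F. Nothing shows that samples came from separate animals, so p-values measure the spread between samples. The alternatives were RLE size factors, library size alone, every gene with a count, at least 10 counts in every sample, a fit of all 9 samples, the replicate number as a block, an FDR of 5%, the Wald test of DESeq2 1.42.0 and leaving out each sample. Their counts for single lists were added after seeing the data. The ratios of summed ligands and of Hes6 to Hes1 were added to those planned. The members and lists were chosen with earlier results of these data known. All 10 members were named. Of each other list of pathway genes, those with the lowest adjusted p (up to 5) and some set by name were given, and of marker lists the first and the most abundant genes. Bhlha15, Poglut1, Maml1, Ctbp1, Hdac2, Dtx2, Foxa1, Foxa3, Sox4, Itln1, Agr2, Avil, Pou2f3, Mmp7, Pla2g2a, Vil1, Clca1, Sct, Ang4, Tnfrsf19, Axin2, Olfm4, Cdh5 and the markers at 0 counts were named after their values were seen. Exon lengths and shared 50-base stretches came from GENCODE M21 (GRCm38) and promoters from RefSeq (GRCm38.p6). No coordinates of the count table were used. The result of 1 listed gene is not reported here.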

Additional observations from a re-analysis of the deposited data

How the results depend on the processing

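Each log2 fold change of the 10 genes was recomputed under 14 alternatives. Of 420 such values, 384 stayed on the same side of the threshold, 24 kept the direction but no longer passed, 12 newly passed and 0 reversed. A change of sign was counted as a reversal only where the main or the alternative fit passed. Small differences that passed in neither could change sign, as for Hes1 between Adenoma and MIN (-0.05, with alternatives up to 0.08). For 20 of the 30 differences no alternative changed the call. Leaving out a sample gave 1 to 5 members lower with sulindac, 1 to 5 other pathway genes higher and 4 to 15 lower, and 423 to 1403 of all genes higher and 386 to 1488 lower, and 9 to 16 other pathway genes higher between Sulindac and MIN. The counts of other pathway genes between Sulindac and Adenoma, 4 higher and 11 lower, became 2 and 22 with library size alone, 8 and 18 with DESeq2's Wald test and 8 and 23 at an FDR of 5%. For all genes, library size alone gave 603 higher and 1983 lower, DESeq2's Wald test 1778 higher, and an FDR of 5% 2034 higher and 2374 lower. Asking for at least 10 counts in every sample, which tests fewer genes, gave 11 other pathway genes lower between Adenoma and MIN and 18 between Sulindac and MIN. The cause of the other moves was not tested. Library size alone moved the median of all genes to 0.125 between Adenoma and MIN. Whether same-numbered samples were paired across groups is not given in the sources used here. The correlation of their deviations from the group means was 0.08 to 0.18, -0.02 to 0.21 and -0.04 to 0.30 in the 3 comparisons. For samples of different numbers it was -0.14 to 0.06, -0.28 to 0.07 and -0.25 to 0.09. Every sample correlated best with its own number only between Adenoma and MIN (6 of 6, against 4 of 6 in each of the others). With the replicate number as a block, 4 members were lower with sulindac, since Hes1 then had a log2 fold change of -0.57 and an adjusted p of 0.0177 (edgeR), and the other calls of members did not change. For all genes the block gave 872 higher and 1061 lower with sulindac. Counts were low for Atoh1 in Adenoma and Sulindac, at 25 to 72, and for Dll1 and Dll4 in Sulindac, where the lowest samples held 47 and 48. How far depth adds to the spread of these genes was not tested.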

Other observations

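For each member the genes with the most similar profile over the 9 samples were listed, by the root mean square difference (RMS) of log2(CPM + 0.5) with each profile centered on its own mean, among 13870 genes. Nearest to Dll1 was Vipr1, a receptor for vasoactive intestinal peptide, with means of 69.8, 12.3 and 4.82 CPM in MIN, Adenoma and Sulindac (RMS 0.174). Nearest to Atoh1 were Pdss1, an enzyme of coenzyme Q synthesis, at 37.5, 3.79 and 2.75 CPM (RMS 0.21), and Nr1i2, a nuclear receptor for foreign compounds, at 57.0, 5.11 and 4.65 CPM. Nearest to Jag1 was Sfxn3 at 20.7, 73.8 and 91.2 CPM (RMS 0.116), followed by Pdzd4 and by Zmat3, which encodes a zinc finger protein, at 54.6, 262 and 248 CPM. Nearest to Hes6 were Rapgef3 (6.38, 31.0 and 16.7 CPM, RMS 0.154), Hhex and Tcea2, and nearest to Notch2 was Mycbp2 (109, 107 and 136 CPM, RMS 0.0788). For Notch1 the nearest was Sec22c, for Dll4 Ttc30a1, for Jag2 Osbpl5 and for Hes1 Bre. The genes nearest to Nrarp lay below 1 CPM, where the added 0.5 flattens a profile. The points share libraries and scaling, and likeness of profile was not tested.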
